A study of Mus musculus with 24 samples.

Results

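Cholesterol synthesis enzymes were followed by RNA-seq in mouse muscle precursors that differentiated with or without siRNA silencing of the transcription factors Tead1 and Tead4. The rule for this group names 8 genes, and 7 of them have a row among the 28109 genes of the count table. These are Mvd, Idi1, Fdps, Fdft1, Sqle, Lss and Dhcr7, and the expression of Hmgcs1 was not analysed here. All 7 passed the filter on low counts in both cell types. They were chosen by name with earlier results of these same 24 libraries known, and which of their values were consulted is not recorded. Every level and every change of a member is therefore given as a description. Where calls or p-values of members are counted, the share of all genes that met the same criterion stands beside them as background, and neither is used as support for anything about the members.

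C2C12 cells are an established myoblast line, from the C3H strain per the labels, and PMs are primary myoblasts that the study isolated from young C57/B6 mice. Both were transfected with an siRNA against luciferase as control (siLuc in the labels, siControl here) or with siRNA pools that target Tead1 and Tead4 at once (siTead1/4). RNA was collected at day 0, before differentiation, and at days 3 and 6 of differentiation. There were 12 groups of 2 biological replicates, 1 group for each cell type with each siRNA on each day. Every library thus comes from transfected cells, and untransfected cells were not among the samples. The transfer from growth medium with foetal calf serum to medium with little horse serum took place between day 0 and day 3, so that day and medium cannot be told apart. The C2C12 cells are 1 line, and the labels do not say how many mice gave the PMs of a replicate.

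Cholesterol is made from acetyl-CoA through mevalonate. The enzymes of the first stage build the isoprenoid units, those of the middle stage join them into squalene and close it into lanosterol, and those of the last stage trim lanosterol to cholesterol. In many cell types the genes are switched on together by the sterol regulatory element-binding protein SREBP2, the product of Srebf2. Its escort Scap is held back in the endoplasmic reticulum by the Insig proteins when sterols are plentiful. Muscle cells fuse their membranes into myotubes during differentiation, and the branch of the pathway at farnesyl diphosphate also feeds protein prenylation, dolichol and ubiquinone.

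Of the 7 members, 4 had an entry in the RefSeq promoter table of build GRCm38.p6, and Fdps, Fdft1 and Sqle had none. The 200 bases before the start are shown for these 4 because the members shared much of their profile over the groups, as described further on. For a gene with several starts the one farthest upstream was taken. Capitals mark CCAAT boxes, the binding sequence of the factor NF-Y, which is known to act beside SREBP2 at many of these genes. The stretches are chr8:122443423-122443622 on the minus strand for Mvd, and chr13:8885406-8885605, chr10:76531405-76531604 and chr7:143822967-143823166 on the plus strand for Idi1, Lss and Dhcr7.
Mvd: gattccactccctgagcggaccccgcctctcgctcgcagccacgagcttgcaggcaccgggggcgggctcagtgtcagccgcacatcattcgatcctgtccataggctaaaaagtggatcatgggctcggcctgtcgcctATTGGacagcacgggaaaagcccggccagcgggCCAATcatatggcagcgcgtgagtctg
Idi1: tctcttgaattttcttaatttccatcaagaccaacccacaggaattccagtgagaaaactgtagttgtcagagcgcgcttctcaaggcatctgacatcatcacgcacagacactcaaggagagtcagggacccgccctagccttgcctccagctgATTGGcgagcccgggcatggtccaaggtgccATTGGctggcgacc
Lss: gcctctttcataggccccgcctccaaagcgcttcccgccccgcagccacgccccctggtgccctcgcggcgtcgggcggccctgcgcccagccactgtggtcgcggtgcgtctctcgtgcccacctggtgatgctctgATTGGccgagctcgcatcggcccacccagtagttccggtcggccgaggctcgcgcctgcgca
Dhcr7: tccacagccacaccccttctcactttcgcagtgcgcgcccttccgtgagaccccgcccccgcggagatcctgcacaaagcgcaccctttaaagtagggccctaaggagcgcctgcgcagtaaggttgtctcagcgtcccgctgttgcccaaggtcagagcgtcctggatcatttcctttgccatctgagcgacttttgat

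A CCAAT box on either strand lay within the 250 bases before the start in 3 of these 4 genes, Mvd, Idi1 and Lss, and in 33.8% of all 32851 promoter windows of that length. The first base of the 5 boxes lay between 62 and 14 bases before the start. Dhcr7 had a CCAAT box before another of its 3 starts but not before the one shown. Of the other 13 enzymes of the pathway, 11 had a window and 10 of these held a CCAAT box. The sterol regulatory element was searched on both strands as TCACNCCAC and in a shorter core, CACNCCAC, which lies within it. Neither occurred in these 4 members, and the longer form was in 1.05% and the core in 5.29% of all windows. Of the 11 other enzymes with a window, 0 held the longer form and 1, Acat2, held the core. The window of Hmgcs1, the listed gene without expression values here, held the longer form once, 137 bases before the start, and 3 CCAAT boxes. The MCAT element CATTCC, the sequence that Tead factors are known to bind, was in 0 of the 4 members, in 0 of the 11 other enzymes and in 12.6% of all windows. Such matches are letters in a window and not measured binding sites, and a missing match says only that these letters are not there.

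Between 25453830 and 52784510 reads per library were counted on genes, with a median of 39204772 over the 24 libraries. Levels are given as CPM, the count divided by the library size after TMM scaling of all 24 libraries in edgeR. Fold changes come from the quasi-likelihood fit of edgeR, and "called" means that the log2 fold change exceeded 1 in size at an adjusted p (Benjamini-Hochberg, over all genes) below 0.05. The labels call the replicates biological without saying whether they were separate cultures or animals, so p-values measure only the spread between these samples. Of the siRNA targets, Tead4 was lower in siTead1/4 than in siControl libraries at each day in both cell types and was called at all days except day 6 in C2C12 cells. Tead1 was called in PMs at days 0 and 3. In C2C12 cells Tead1 was called at no day. Its log2 fold changes there were -2.46, -1.09 and -0.52 at days 0, 3 and 6, and the groups overlapped at day 6. In siTead1/4 C2C12 cells at day 0 Tead1 stood at 28.85 CPM in replicate 1 and at 4.5 CPM in replicate 2.

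Replicate 2 of siTead1/4 C2C12 cells at day 0 stood apart from replicate 1 in the members themselves. The CPM summed over the 7 members was 238 in replicate 1 and 846 in replicate 2, a ratio of 3.55, while the ratio between replicates was at most 1.58 in the other 11 groups. The siControl libraries of the same day lay at 296 and 314. The other 13 enzymes summed to 572 and 1530 CPM in the same pair. Replicate 2 also had the fewest counted reads of the 24 libraries, 25453830, against 36312586 in replicate 1. The siRNA target Tead1 was at 28.85 and 4.5 CPM and Tead4 at 4.37 and 4.28 CPM in replicates 1 and 2. Markers moved as well. The 11 muscle markers summed to 603 and 1425 CPM, the 5 fibroblast markers to 110 and 256 CPM and the 10 cycling markers to 2790 and 2295 CPM, in replicates 1 and 2. Of the fibroblast markers, 2 of 5 had no count in either of them. The fibroblast marker with the highest level went from 81.9 CPM in replicate 1 to 248 CPM in replicate 2. The next highest in replicate 1 went the other way, from 27.6 to 6.47 CPM. The part of these differences in the members' values was not tested. The members' silencing medians of that day, and their difference between the cell types, are given with and without this library. Most other values that rest on it, such as ratios and correlations of group means and values of other genes, include it.

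**Figure D1:**
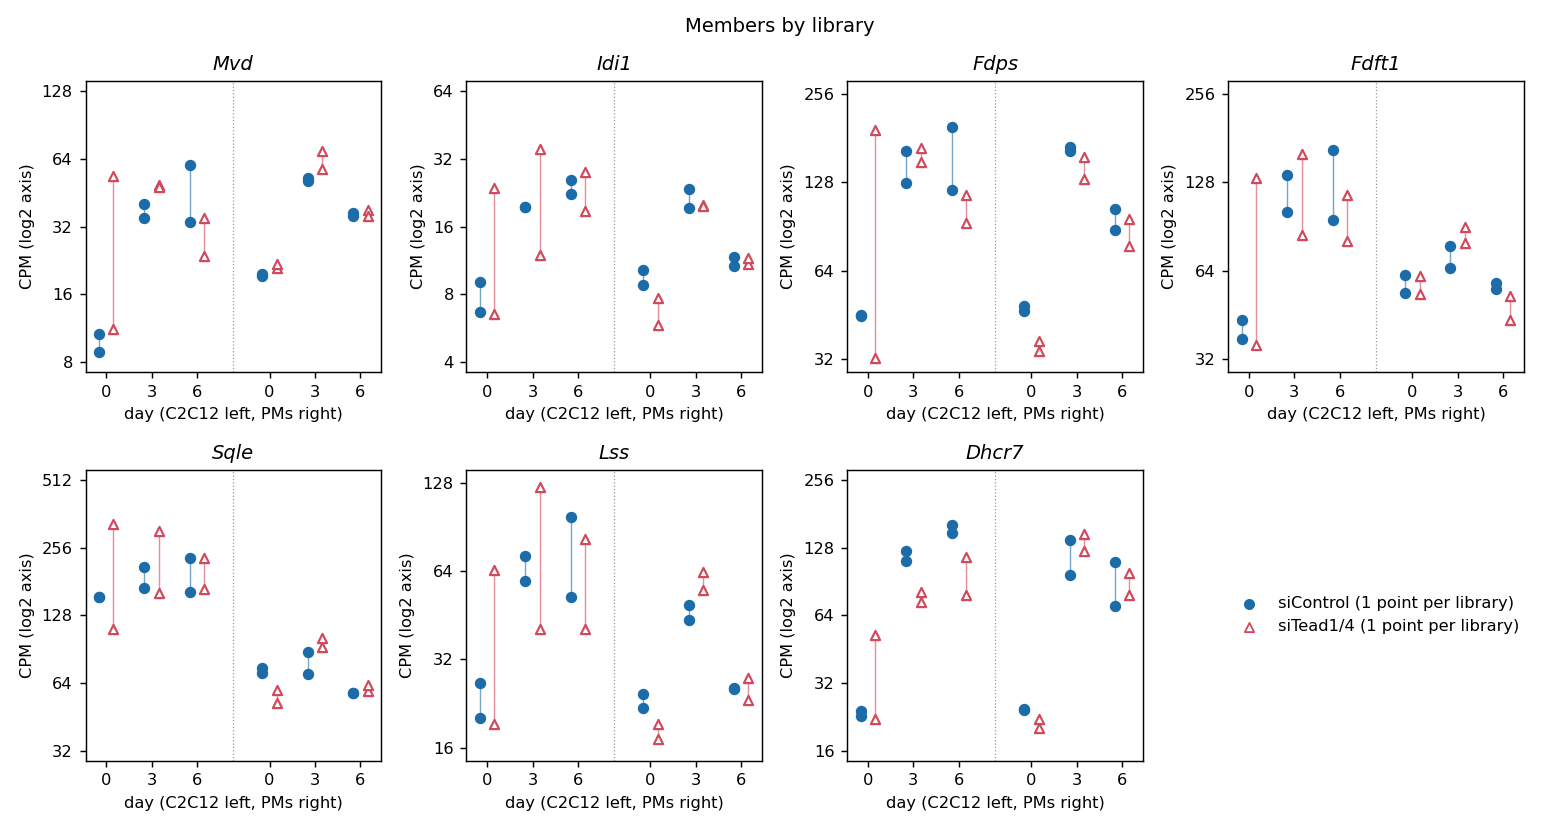
Level of each of the 7 members in every library, in CPM on a log2 axis, against the day, with C2C12 cells left and PMs right of the dotted line. Filled circles are siControl and open triangles siTead1/4 libraries, 1 point per library, and a line joins the 2 replicates of a group. In siControl C2C12 cells every member lay lowest at day 0, and the upper triangle at day 0 in C2C12 cells, at 193 CPM for Fdps, is replicate 2 of siTead1/4.

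The mevalonate stage is represented by Mvd, Idi1 and Fdps. Mvd (ENSMUSG00000006517, mm9 chromosome 8, 124957496 to 124967322, minus strand) encodes mevalonate diphosphate decarboxylase, which makes isopentenyl diphosphate. In siControl C2C12 cells it was at 8.87 and 10.7 CPM at day 0, at 40.5 and 35.1 CPM at day 3 and at 59.9 and 33.6 CPM at day 6. In siControl PMs it was at 19.2 and 19.6 CPM at day 0, at 51.2 and 52.8 CPM at day 3 and at 35.5 and 36.9 CPM at day 6. Both cell types were lowest at day 0 without overlap, and the PMs came down again after day 3. The log2 fold change from day 0 to day 3 was 1.91 (standard error 0.58) in C2C12 cells and 1.37 (standard error 0.11) in PMs. With siTead1/4, Mvd was at 11.2 and 53.5, at 49.2 and 47.9 and at 34.9 and 23.6 CPM at days 0, 3 and 6 in C2C12 cells. The PMs with siTead1/4 had 20.9 and 21.7, 58.0 and 69.1, and 37.8 and 35.6 CPM on the same days. Mvd was the only member for which the siTead1/4 libraries lay above both siControl libraries at days 0 and 3 in both cell types.

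Idi1 (ENSMUSG00000058258, chromosome 13, 8884747 to 8891697, plus strand) encodes the isomerase that turns isopentenyl diphosphate into dimethylallyl diphosphate. Its siControl levels in C2C12 cells were 6.67 and 9.02 CPM at day 0, 19.5 and 19.5 CPM at day 3 and 25.9 and 22.2 CPM at day 6. PMs had 8.75 and 10.2 CPM at day 0, 19.3 and 23.5 CPM at day 3 and 11.7 and 10.7 CPM at day 6. Both day 3 libraries thus lay above both day 0 libraries in each cell type, and in PMs day 6 lay just above day 0. Idi1 changed by 1.27 (standard error 0.59) in C2C12 cells and by 1.12 (standard error 0.16) in PMs from day 0 to day 3 on the log2 scale. Under siTead1/4 the C2C12 replicates were at 6.55 and 23.8, at 35.4 and 11.9 and at 27.9 and 18.7 CPM at days 0, 3 and 6. Those of PMs were at 5.83 and 7.72, at 19.97 and 19.65 and at 10.9 and 11.6 CPM. The replicates of siTead1/4 C2C12 cells lay on both sides of the siControl libraries at every day, and those of PMs lay below them at day 0.

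Fdps (ENSMUSG00000059743, chromosome 3, 88897514 to 88905881, minus strand) encodes farnesyl diphosphate synthase, at the branch to prenylated proteins. It had the highest level per length of the members in 5 of the 6 siControl groups, with 135 ± 3.21 CPM per kb in PMs at day 3 (SD, n = 2). Its siControl C2C12 libraries were at 44.9 and 45.2 CPM at day 0, at 163 and 128 CPM at day 3 and at 197 and 121 CPM at day 6. The PM libraries were at 46.5 and 48.5 CPM at day 0, at 164 and 169 CPM at day 3 and at 88.3 and 104 CPM at day 6. Fdps thus started from nearly the same level in the 2 cell types and reached a similar one at day 3. The log2 fold change at day 3 was 1.65 (standard error 0.61) in C2C12 cells and 1.75 (standard error 0.14) in PMs. Silenced C2C12 cells had 32.2 and 193 CPM at day 0, 168 and 150 CPM at day 3 and 116 and 93.4 CPM at day 6. Silenced PMs had 34.1 and 37.0 CPM at day 0, 131 and 156 CPM at day 3 and 77.6 and 96.0 CPM at day 6. At days 0 and 3 both silenced PM libraries lay below both siControl libraries, and in C2C12 cells this was so at day 6.

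The middle stage, from farnesyl diphosphate to lanosterol, is represented by Fdft1, Sqle and Lss. Fdft1 (ENSMUSG00000021273, chromosome 14, 63763990 to 63796630, minus strand) encodes squalene synthase. It shares 769 exonic bases with Ctsb on the opposite strand, and since the libraries did not keep the strand, reads from there cannot be assigned to either gene with certainty. In siControl C2C12 libraries Fdft1 was at 37.3 and 43.5 CPM at day 0, at 136 and 102 CPM at day 3 and at 165 and 95.3 CPM at day 6. In PMs it was at 53.8 and 61.7, at 65.2 and 77.5 and at 55.2 and 57.9 CPM. The C2C12 values separated day 0 from the later days widely, whereas the 6 PM libraries lay between 53.8 and 77.5 CPM. On the log2 scale the change to day 3 was 1.52 (standard error 0.54) in C2C12 cells and 0.25 (standard error 0.14) in PMs. The C2C12 replicates with siTead1/4 had 35.7 and 132, 160 and 84.6, and 116 and 80.9 CPM at days 0, 3 and 6. The PM replicates had 53.3 and 61.5, 79.7 and 90.5, and 43.4 and 52.5 CPM. The silenced PMs lay above siControl at day 3 and below it at day 6.

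Sqle (ENSMUSG00000022351, chromosome 15, 59146632 to 59162747, plus strand) encodes squalene epoxidase, a step known to limit the flux through the later pathway. It differed least between day 0 and day 3. C2C12 siControl cells had 155 and 155 CPM at day 0, 209 and 169 CPM at day 3 and 231 and 162 CPM at day 6. PMs had 70.9 and 74.5 CPM at day 0, 69.8 and 88.2 CPM at day 3 and 57.6 and 57.9 CPM at day 6. Every C2C12 library lay above every PM library, with either siRNA. The log2 fold changes to day 3 were 0.25 (standard error 0.46) in C2C12 cells and 0.06 (standard error 0.12) in PMs, the smallest of the 7 in each. With siTead1/4 the levels were 111 and 326, 304 and 160, and 229 and 168 CPM in C2C12 cells at days 0, 3 and 6. In PMs they were 52.4 and 59.3, 92.0 and 101, and 59.0 and 62.8 CPM. In PMs the silenced libraries were below siControl at day 0 and above it at days 3 and 6.

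Lss (ENSMUSG00000033105, chromosome 10, 75994333 to 76019883, plus strand) encodes lanosterol synthase, which closes the sterol rings. It shares 381 exonic bases with 4930483K19Rik on the opposite strand. Levels in siControl C2C12 cells were 20.1 and 26.6 CPM at day 0, 71.8 and 59.3 CPM at day 3 and 98.2 and 52.1 CPM at day 6. In siControl PMs they were 21.8 and 24.3 CPM at day 0, 43.5 and 49.2 CPM at day 3 and 25.4 and 25.5 CPM at day 6. Lss thus began at overlapping levels in the 2 cell types and was higher in both at day 3, and only the PMs returned close to the start. The log2 fold change to day 3 was 1.45 (standard error 0.64) in C2C12 cells and 0.95 (standard error 0.13) in PMs. Silenced C2C12 libraries were at 19.3 and 64.4, at 124 and 40.6 and at 82.2 and 40.7 CPM at days 0, 3 and 6. Silenced PM libraries were at 17.1 and 19.3, at 55.4 and 63.8 and at 27.7 and 23.2 CPM. For Lss the 2 silenced C2C12 replicates differed most at day 0 and day 3, and the silenced PMs were below siControl at day 0 and above it at day 3.

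The last stage is represented by Dhcr7 (ENSMUSG00000058454, chromosome 7, 151009050 to 151034315, plus strand), the reductase that turns 7-dehydrocholesterol into cholesterol. It had the largest change of the 7 between day 0 and day 3 in both cell types. Its siControl C2C12 values were 22.9 and 24.1 CPM at day 0, 112 and 124 CPM at day 3 and 149 and 162 CPM at day 6. PMs had 24.4 and 24.2 CPM at day 0, 97.0 and 139 CPM at day 3 and 70.6 and 110 CPM at day 6. The cells thus left day 0 at almost the same level, and every later library was well above it. The log2 fold changes to day 3 were 2.29 (standard error 0.35) and 2.22 (standard error 0.23) in C2C12 cells and PMs. Silenced C2C12 cells were at 22.1 and 52.5 CPM at day 0, at 73.7 and 81.6 CPM at day 3 and at 78.8 and 116 CPM at day 6. Silenced PMs were at 22.0 and 20.2, at 124 and 148 and at 79.1 and 98.5 CPM. At days 3 and 6 both silenced C2C12 libraries lay below both siControl libraries, and in PMs the groups overlapped on those days.

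Per length, the siControl levels spanned a wide range. In C2C12 cells at day 0 Sqle led with 56.1 ± 0.127 CPM per kb, before Fdps with 36.5 ± 0.177 and Fdft1 with 14.1 ± 1.52, and Dhcr7, Mvd, Lss and Idi1 followed at 6.21 ± 0.235, 5.55 ± 0.735, 4.74 ± 0.935 and 2.54 ± 0.539 CPM per kb (SD, n = 2 each). The neighbours Dhcr7 and Mvd, and Mvd and Lss, lay within the sum of their SDs. In PMs at day 0 the order was Fdps, Sqle, Fdft1, Mvd, Dhcr7, Lss and Idi1, from 38.5 ± 1.13 to 3.08 ± 0.344 CPM per kb. By day 3 Dhcr7 had moved to the second place in PMs with 31.2 ± 7.80 CPM per kb, within the sum of the SDs of Mvd at 29.5 ± 0.640 and Sqle at 28.6 ± 4.72. Idi1 was the lowest member per length in all 6 siControl groups.

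Of the 18 comparisons, the members' medians were largest in siControl C2C12 cells at days 6 and 3 against day 0. From day 0 to day 3 the 7 members had a median log2 fold change of 1.52 in siControl C2C12 cells and of 1.12 in siControl PMs. Over all genes tested the median was -0.01 in C2C12 cells (15303 genes) and 0.01 in PMs (16144 genes). All 7 had both day 3 libraries above both day 0 libraries in C2C12 cells, where this held for 40.3% of all genes tested. In PMs it held for 6 members, all except Sqle, and for 43.1% of genes. In C2C12 cells 3 of 7 were called higher, Mvd, Fdft1 and Dhcr7, and 16% of genes. The PM calls were 4 of 7, Mvd, Idi1, Fdps and Dhcr7, and 17.5% of genes, and they stayed at 4 without siControl replicate 1 (14.3% of genes) or 2 (14.6%). Without replicate 2 of siTead1/4 at day 0, which takes part in the estimate of the spread, 5 of 7 were called in C2C12 cells, the former 3 with Fdps and Idi1, and 15.9% of genes. Without siControl replicate 1 the count was 1, with 6.94% of genes, and without siControl replicate 2 it was 0, with 5.66% of genes, so that the C2C12 count rests on both replicates.

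Markers of the state of the cells moved with the same days. The 10 cycling markers summed to 2875 to 2927 CPM in siControl C2C12 cells at day 0 and to 311 to 316 CPM at day 3, and all 10 were called lower. In PMs they went from 2183 to 2267 CPM down to 223 to 264 CPM, with all 10 called lower. The 11 muscle markers summed to 995 to 1139 CPM at day 0 and 18980 to 21870 CPM at day 3 in C2C12 cells with 8 called higher, and to 12330 to 12930 and 41200 to 43420 CPM in PMs with 7 called higher and 3 lower. The 5 fibroblast markers went from 74.6 to 88.6 CPM up to 190 to 421 CPM in C2C12 cells, with 2 called higher, and from 25.7 to 27.2 to 28.7 to 38.3 CPM in PMs, with 1 called higher. Summed markers of other cell types reached at most 98.98 CPM for adipocytes, 2.42 CPM for macrophages and 16.1 CPM for endothelium in any of the 24 libraries. The part of these shifts in the members' values was not tested. In bulk RNA, fewer cells of a type and less RNA per cell cannot be told apart.

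Later the cell types parted. The members' median log2 change between days 3 and 6 was 0.20 in siControl C2C12 cells (-0.07 without replicate 1 and 0.42 without replicate 2), and none was called. No gene at all was called in that comparison (0% of 15303). An unadjusted p under 0.05 in edgeR was reached by 406 genes (2.65%), and 17 (0.111%) were called by DESeq2. In PMs all 7 members were lower at day 6 than at day 3 with a median of -0.53, from -0.94 for Idi1 to -0.35 for Fdft1. The day 6 libraries lay below the day 3 libraries for 6 of 7, all except Dhcr7, where this held for 24.7% of genes. None of the 7 was called lower, and 0.582% of genes were. EdgeR's unadjusted p was under 0.05 for 6 of them and for 22% of all genes, and DESeq2 called 0 of them and 3.16% of all genes. Against day 0, the median at day 6 was 1.65 in C2C12 cells and 0.17 in PMs, where it was 0.0173 without siControl replicate 1 and 0.35 without siControl replicate 2. In C2C12 cells all 7 had the day 6 libraries above those of day 0, as had 39.3% of genes, and 4 were called higher, Mvd, Fdps, Fdft1 and Dhcr7, beside 17.1% of genes. In PMs 1 was called, Dhcr7, beside 20.2% of genes. The number called in C2C12 cells was 6 without replicate 2 of siTead1/4 at day 0, beside 16.9% of genes. It was 1 without siControl replicate 1 or 2, beside 7.33% and 7.8% of genes. Over the same step of PMs, from day 3 to day 6, 4 of 5 fibroblast markers were called higher and their sum went from 28.7 to 38.3 CPM to 107 to 166 CPM, and the part of this in the members' values was not tested.

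**Figure D2:**
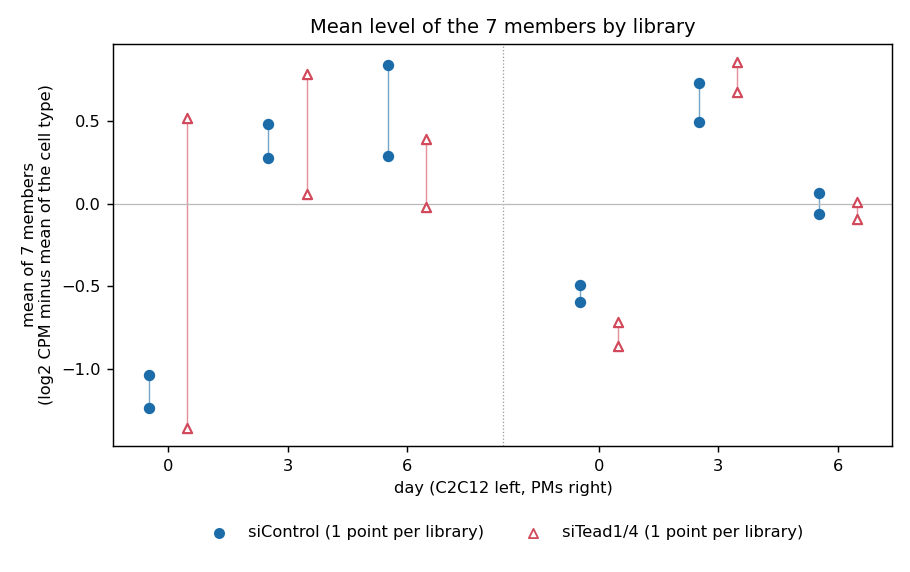
Mean of the 7 members in every library, as log2 CPM minus the mean of the cell type over its 12 libraries, against the day, with C2C12 cells left and PMs right of the dotted line. Filled circles are siControl and open triangles siTead1/4, and a line joins the 2 replicates of a group. PMs lie highest at day 3, siControl C2C12 cells lie as high at day 6 as at day 3, and the 2 triangles of C2C12 cells at day 0 lie at -1.35 and 0.52.

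Silencing of Tead1 and Tead4 left no member past the threshold at any day in either cell type. In C2C12 cells at day 0 the median log2 fold change was 0.95, from 0.50 for Sqle to 1.73 for Mvd, with standard errors of 0.34 to 0.63. Of all genes 0.438% were called there. The value rests on 1 library. Without replicate 2 of siTead1/4 at that day the median was -0.29, and without replicate 1 of siTead1/4 it was 1.59 with 5 members called higher, beside 0.981% of genes. At day 3 the median was 0.26, with Dhcr7 at -0.63 (standard error 0.34) against 0.02 to 0.33 for the other 6, and 1.27% of genes were called. Leaving out siTead1/4 replicate 1 gave a median of -0.49, siTead1/4 replicate 2 one of 0.42 and siControl replicate 2 one of 0.14. The muscle markers of C2C12 cells at day 3 summed to 7202 to 9694 CPM with siTead1/4 against 18980 to 21870 CPM, and the fibroblast markers to 50.1 to 78.6 against 190 to 421 CPM, and the part of these in the members' values was not tested. The day 6 median was -0.40, with 6 of 7 members lower, Mvd, Dhcr7 and Fdps the most at -0.67, -0.66 and -0.60, and 0.0457% of genes were called. That median was 0.05 without siControl replicate 1, -0.68 without siControl replicate 2, -0.67 without siTead1/4 replicate 1 and -0.17 without siTead1/4 replicate 2. At day 6 the muscle markers summed to 9855 to 18070 CPM with siTead1/4 against 19190 to 22890 CPM. The fibroblast markers of that day summed to 47.3 to 76.3 against 92.2 to 409 CPM. The adipocyte markers summed to 35.6 to 66.4 against 22.3 to 23.3 CPM. The adipocyte marker with the highest level was at 31.7 to 60.5 against 15.4 to 19.2 CPM. The next highest did not go that way, at 3.9 to 5.675 against 3.976 to 6.783 CPM. The part of these marker values in the members' values was not tested. EdgeR gave an unadjusted p under 0.05 for 1, 0 and 0 members at days 0, 3 and 6, and for 10.5%, 14.2% and 6.95% of all genes. DESeq2 called 1 member at day 0, Mvd, and 0 at the later days, with 1.68%, 3.91% and 0.941% of all genes.

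PMs had tighter replicates. At day 0 the median of the members was -0.35, and 5 of 7 lay below siControl without overlap, as did 29.8% of genes. The 5 were Idi1 at -0.49 (standard error 0.17), Fdps at -0.43 (standard error 0.13), Sqle at -0.39 (standard error 0.12), Lss at -0.35 (standard error 0.13) and Dhcr7 at -0.21 (standard error 0.22). Fdft1 was at -0.02 and Mvd at 0.13. At day 3 the median was 0.24, from -0.22 for Fdps to 0.35 for Lss. It was 0.12 without siControl replicate 1, 0.37 without siControl replicate 2 and 0.14 without siTead1/4 replicate 2. At day 6 it was -0.0007, from -0.24 to 0.08. The shares of genes called were 2.6%, 3.3% and 0.743% at days 0, 3 and 6. Of the 7 members, 4, 3 and 0 had an unadjusted p under 0.05 in edgeR at these days, beside 23.3%, 22.7% and 11.9% of all genes. DESeq2 called 0 members at each, and 2.78%, 3.57% and 1.38% of all genes. The 11 muscle markers at day 0 summed to 10310 to 11810 CPM with siTead1/4 against 12330 to 12930 CPM, and the 10 cycling markers to 1591 to 1653 against 2183 to 2267 CPM, in PMs. The muscle markers did not all move this way. The highest in siControl PMs was at 2425 to 3462 against 3793 to 4112 CPM, and the next at 2239 to 2780 against 2164 to 2492 CPM. At day 3 the muscle markers of PMs summed to 36660 to 38570 CPM with siTead1/4 against 41200 to 43420 CPM. The second highest overlapped, at 9510 to 10260 against 10030 to 10830 CPM. At day 6 the fibroblast markers of PMs summed to 78.6 to 79.6 against 107 to 166 CPM. The highest overlapped, at 58.2 to 62.8 against 54.4 to 84.0 CPM, and the next was at 8.37 to 10.6 against 40.2 to 64.3 CPM. The part of these in the members' values was not tested.

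Over the days, silenced PMs changed in the same directions as siControl PMs from day to day, and silenced C2C12 cells did not follow siControl cells throughout. As log2 ratios of group means, the members of siTead1/4 PMs were 0.57 to 2.68 higher at day 3 than at day 0, with a median of 1.58 against 1.17 in siControl PMs, and 0.61 to 1.23 lower at day 6 than at day 3. In siTead1/4 C2C12 cells the median from day 0 to day 3 was 0.59 against 1.56 in siControl cells. From day 3 to day 6 it was -0.32 with 1 of 7 members higher, against 0.20 with 7 of 7 higher in siControl cells. From day 0 to day 6 it was 0.23 with 4 of 7 higher, against 1.69 with 7 of 7. The mean of day 0 there holds the library that stood apart. The members' mean on the centred log2 scale was -1.35, 0.78 and 0.39 at days 0, 3 and 6 in replicate 1 of these silenced cells and 0.52, 0.06 and -0.02 in replicate 2. These ratios were not tested.

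Set against each other, the siTead1/4 effects of the cell types differed at day 0 by a median of -1.18 (PMs minus C2C12 cells), at day 3 by -0.01 and at day 6 by 0.29, and no member was called. The shares of genes called for such a difference were 0.00591%, 1.25% and 0.0354%. EdgeR's unadjusted p was under 0.05 for 3, 0 and 0 members, beside 4.28%, 13% and 5.41% of all genes, and DESeq2 called 0 members at each day, beside 0.189%, 2.92% and 0.366% of all genes. Without the library that stood apart the day 0 median was -0.03. The day 3 median lay between -0.46 and 0.59 when 1 replicate was left out, the extremes being those without siTead1/4 replicate 2 and replicate 1. The day 6 median was -0.05 without siControl replicate 1, 0.68 without siControl replicate 2, 0.55 without siTead1/4 replicate 1 and -0.02 without siTead1/4 replicate 2.

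Side by side in siControl cells, the median log2 difference of the members, PMs minus C2C12 cells, was 0.08 at day 0 and 0.00 at day 3, where it was 0.17 without replicate 1 and -0.23 without replicate 2. Mvd was at 0.99 (standard error 0.44) at day 0, with both PM libraries above both C2C12 libraries. Sqle went the other way, at -1.09 (standard error 0.36) at day 0, -1.26 (standard error 0.36) at day 3 and -1.77 (standard error 0.37) at day 6. It was the 1 member called lower at days 0 and 3, beside 10.5% and 12.6% of genes. At day 6 all 7 were lower in PMs with a median of -1.10 (-0.72 without replicate 1), and 6 of them, all except Mvd, had both PM libraries below both C2C12 libraries, as had 33.4% of genes. Fdft1, Lss and Sqle were called lower, beside 9.22% of genes. Without siControl replicate 1 the count was 0, beside 4.74% of genes, and without siControl replicate 2 it was 1, beside 6.3%. The calls of Sqle at days 0 and 3 were lost without either siControl replicate as well, where 6.57% to 9.44% of genes were called lower. Of the 11 muscle markers, 10 were called higher in PMs at day 0, 5 at day 3 and 4 at day 6. Markers of other cell types differed too. Of 5 endothelial markers 3, 4 and 1 were called higher in PMs at days 0, 3 and 6, and their sum was 3.10 to 10.4 CPM in PMs against 0.338 to 0.373 CPM in C2C12 cells at day 0. Of 5 fibroblast markers 1 was called higher at each day and 2, 4 and 1 were called lower. Thy1, the one called higher, had no count in either siControl C2C12 library of day 0 and 18.1 and 14.7 CPM in PMs. Among 6 adipocyte markers, of which 3 passed the filter, 1 was called higher and 1 lower at each day. The part of these markers in the members' values was not tested. The lines differ in strain and in culture conditions, and cell type, strain and medium cannot be told apart.

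The other 13 enzymes of the pathway were measured too. They and the lists that follow were drawn from general knowledge with earlier results of these data known. Their p-values are therefore given as a description. Of all genes, 16% were called higher and 12.7% lower at day 3 against day 0 in siControl C2C12 cells. In siControl PMs these shares were 17.5% and 14.9%. For the 13 enzymes, day 3 against day 0 of siControl cells gave a median log2 change of 0.71 in C2C12 cells, and of 1.04 in PMs. In each, 12 of the 13 values were positive. Called higher in C2C12 cells were the 4 enzymes Nsdhl (1.99, edgeR adjusted p = 0.0306), Tm7sf2 (1.78, adjusted p = 0.0429), Cyp51 (1.53, adjusted p = 0.0451) and Ebp (1.51, adjusted p = 0.00624). All 4 act between lanosterol and cholesterol. In PMs 7 were called higher. Sc5d (1.5, adjusted p = 1.9e-06), Tm7sf2 (1.5, adjusted p = 5.6e-05) and Nsdhl (1.46, adjusted p = 9.9e-05) led, followed by Cyp51 (1.19), Hsd17b7 (1.14), Mvk (1.09), the mevalonate kinase, and Msmo1 (1.04), which the table lists as Sc4mol. Acat2, Pmvk and Ebp were higher in PMs at an adjusted p under 0.05 but by 0.55 to 0.81 only. The 4 calls in C2C12 cells were each lost without either siControl replicate, whereas the 7 in PMs were kept.

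Lbr went the other way. It encodes the lamin B receptor, a protein of the nuclear envelope that is also a sterol reductase, and it does the same step as Tm7sf2. Lbr fell by 1.69 in C2C12 cells (edgeR adjusted p = 1.7e-04) and by 1.36 in PMs (adjusted p = 1.1e-05) on the log2 scale, from 97.7 and 114 to 35.1 and 32.7 CPM and from 87.4 and 83.6 to 33.8 and 35.4 CPM. These calls were kept without either siControl replicate.

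From day 3 to day 6 all 13 were lower in siControl PMs with a median of -0.54, 9 at an adjusted p under 0.05 and none past the fold threshold, by edgeR or DESeq2, with 12 at an unadjusted p under 0.05. In C2C12 cells the median was 0.22, none was called by edgeR or DESeq2, and 0 had an unadjusted p under 0.05. Between PMs and C2C12 cells at day 6, Ebp (-2.33, edgeR adjusted p = 1.1e-05), Nsdhl (-1.55, adjusted p = 0.0230), Acat2 (-1.54, adjusted p = 0.0451) and Cyp51 (-1.32, adjusted p = 0.0197) were called lower in PMs, and of these Ebp alone was kept without either siControl replicate. Of all genes, 9.22% were called lower in PMs there. The median of the 13 was -1.04, beside -1.10 of the members. Under siTead1/4 none of the 13 was called in any of the 6 comparisons, and 0 were by DESeq2, with 4, 0 and 0 at an unadjusted p under 0.05 in C2C12 cells and 7, 5 and 0 in PMs at days 0, 3 and 6. The shares of all genes at that unadjusted p were 10.5%, 14.2% and 6.95% in C2C12 cells and 23.3%, 22.7% and 11.9% in PMs. The C2C12 comparison of day 0 holds the library that stood apart. Lbr at day 0 of PMs had an adjusted p of 0.0192 with a log2 fold change of -0.62 in edgeR.

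**Figure D3:**
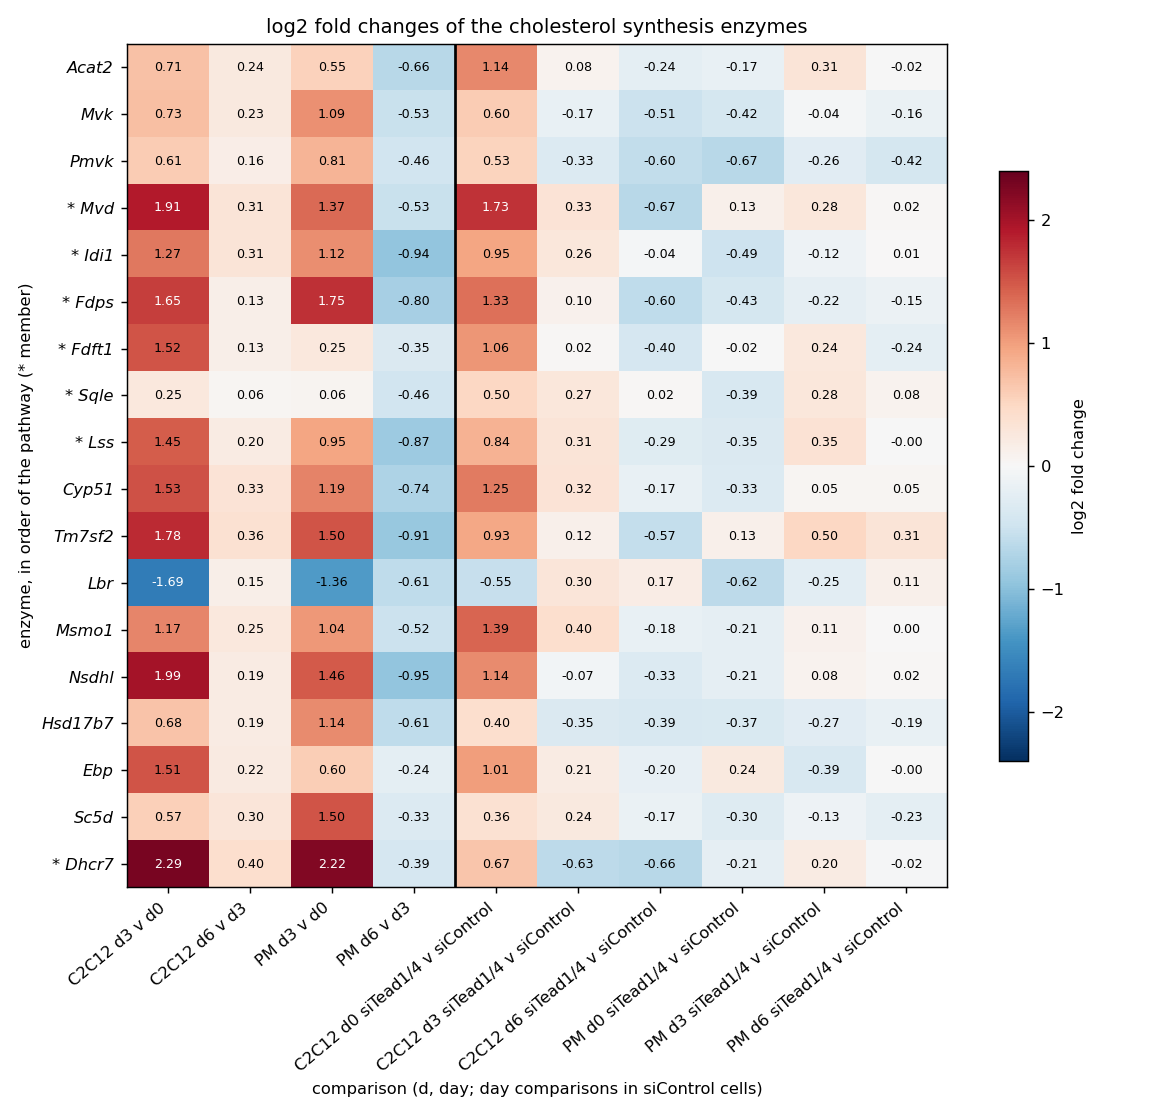
Log2 fold changes of 18 enzymes in the order of the pathway, with the 7 members starred, in 10 comparisons. Red is higher and blue lower in the first named group, the 4 columns left of the black line compare days in siControl cells, and the 6 right of it compare siTead1/4 with siControl. Nearly all enzymes are red at day 3 against day 0 in both cell types, Lbr is blue there at -1.69 and -1.36, and all are blue at day 6 against day 3 in PMs.

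The likeness of the members to each other and to other genes was measured over the 12 group means of log2 CPM, centred within each cell type. These points share libraries and the scaling, so the coefficients are a description. The point of siTead1/4 C2C12 cells at day 0 averages libraries in which the members' mean was -1.35 and 0.52. Pearson's r between 2 members lay between 0.509 and 0.965 over the 21 pairs, with a median of 0.868, and it was at least 0.709 among the 15 pairs without Sqle. Of the 16926 genes tested, the 10 non-members with the highest r to the members' mean profile were Nsdhl (0.990), Cyp51 (0.990), Tm7sf2 (0.981), Scd2 (0.974), Insig1 (0.969), Sc4mol (0.967), Gm15564 (0.964), Mmab (0.960), Gm17228 (0.958) and Serf2 (0.956). Of these, 4 are enzymes of the same pathway, Nsdhl, Cyp51, Tm7sf2 and Sc4mol. Other enzymes of the pathway had a lower r, such as Mvk (0.908), Pmvk (0.801) and Acat2 (0.763), and Lbr had an r of -0.786. Srebf2 had an r of 0.429.

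The regulators of the pathway were looked at in a list of 13 genes of sterol sensing and uptake, of which 2 were called higher at day 3 in each cell type. Insig1, which retains Scap when sterols are plentiful, rose by 1.72 in C2C12 cells (standard error 0.56, edgeR adjusted p = 0.0319) and by 1.08 in PMs (standard error 0.19, adjusted p = 7.0e-04). Both C2C12 calls of Insig1, at days 3 and 6, were lost without either siControl replicate, and the PM call without siControl replicate 1. Srebf2 was called higher at day 3 in C2C12 cells, at 473 and 451 CPM against 206 and 241 CPM (log2 fold change 1.01, adjusted p = 0.0221), a call lost without either siControl replicate. In PMs it was at 213 and 252 CPM against 288 and 308 CPM (log2 fold change -0.42, standard error 0.15, adjusted p = 0.0348), below the fold threshold. At day 6 it was called lower in PMs than in C2C12 cells (log2 difference -1.08, adjusted p = 0.00205), and not without siControl replicate 1. Srebf1, which drives fatty acid synthesis more than cholesterol synthesis, had log2 fold changes to day 3 of 0.54 (adjusted p = 0.228) in C2C12 cells and 0.89 (adjusted p = 0.00248) in PMs.

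Under siTead1/4, Srebf1, Srebf2 and Insig1 were not called at any day in either cell type. The value of Insig1 in C2C12 cells at day 0 was 1.21 (edgeR adjusted p = 0.478), in the comparison that holds the library that stood apart. Srebf2 in PMs at day 3 was at 296 and 342 CPM with siTead1/4 against 213 and 252 CPM (log2 fold change 0.45, adjusted p = 0.104).

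Genes of sterol efflux and its control, a list of 10 that includes targets of the liver X receptors, had 5 called higher and 0 lower at day 3 in C2C12 cells and 3 higher and 1 lower in PMs. Abca1, the exporter of cholesterol to lipid-poor apolipoproteins, rose by 5.04 in C2C12 cells (edgeR adjusted p = 5.3e-04) and by 2.797 in PMs (adjusted p = 0.00198), from 0.366 and 0.444 to 12.4 and 15.4 CPM and from 3.20 and 2.82 to 29.3 and 14.4 CPM. Cyp27a1, the sterol 27-hydroxylase, had no count in either siControl C2C12 library of day 0 and a mean of 1.85 CPM at day 3, at least 26.8-fold higher than a floor of 3 counts per library, and it rose by 3.44 in PMs (adjusted p = 1.0e-06). Apoe rose by 3.37 in C2C12 cells (adjusted p = 0.00162), a call lost without siControl replicate 2. The other calls in C2C12 cells were Abcg1 and Mylip, which are named here after their values were seen, and that of Mylip was lost without either siControl replicate. In PMs Nr1h3, the liver X receptor alpha, rose by 1.83 (adjusted p = 0.0015). The gene called lower there was Soat1, which stores cholesterol as esters and is also named after its value was seen (-1.38, adjusted p = 5.6e-05). None of the 10 was called under siTead1/4 at any day by edgeR, with 0, 3 and 2 genes in C2C12 cells and 0, 1 and 1 in PMs at an unadjusted p under 0.05, and DESeq2 called 1 gene at day 3 in each cell type.

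The branches beside the pathway moved less uniformly. Of 11 genes that use isoprenoids for ubiquinone, dolichol or prenylation, 1 was called at day 3 in each cell type, Pdss1, a subunit of the enzyme that makes the ubiquinone side chain, which fell by 1.96 in C2C12 cells (edgeR adjusted p = 5.8e-05) and by 1.33 in PMs (adjusted p = 4.4e-05). Of 12 genes of fatty acid synthesis and desaturation, 3 were called higher in C2C12 cells and 4 higher and 2 lower in PMs. Acss2, which makes acetyl-CoA from acetate, rose by 2.56 and 2.66 (adjusted p = 3.1e-04 and 7.9e-07) and Scd1, a desaturase, by 2.22 and 2.87 (adjusted p = 0.00106 and 1.8e-07) in C2C12 cells and PMs. The C2C12 call of Scd1 was lost without siControl replicate 1. Scd2, another desaturase, was the remaining C2C12 call, at 2.03, and this call was lost without either siControl replicate. Acacb rose by 4.78 in PMs (adjusted p = 9.9e-06). Elovl6, an elongase, was the 1 gene of this list called under siTead1/4, at day 0 of PMs (-1.07, adjusted p = 0.0125), a call that was lost in 3 of the 4 fits that leave out a replicate.

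**Figure D4:**
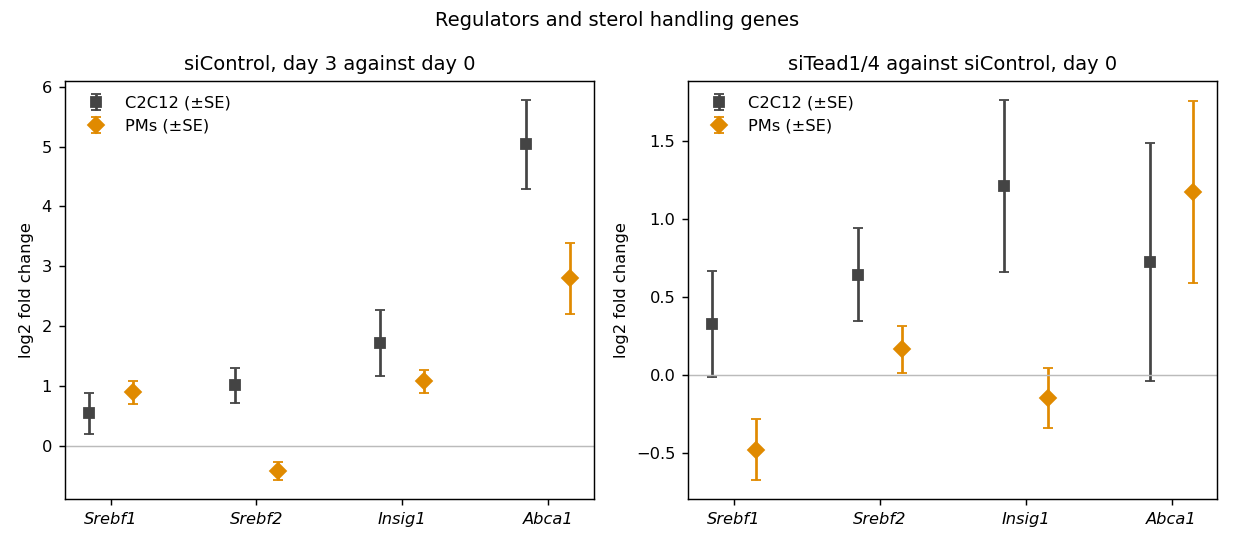
Log2 fold changes of 4 regulators and sterol handling genes, with bars of ±1 standard error, for siControl cells at day 3 against day 0 (left) and for siTead1/4 against siControl at day 0 (right). Squares are C2C12 cells and diamonds PMs, and the squares on the right include the library that stood apart. Srebf2 lies at 1.01 in C2C12 cells and -0.42 in PMs on the left.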

How the data were processed

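RNA-seq was made by the study from C2C12 cells and PMs in 12 groups of 2 libraries (polyA selection, no strand information). Per the submitters' processing notes, CASAVA 1.8.2, TopHat2 2.0.10, Bowtie2 2.1.0, HTSeq 0.6.1, DESeq2 1.8.1 and build mm9 were used, and the counts per gene were deposited by the authors without normalization in 1 table of 28109 genes. Of that table, 36 columns of 12 libraries that are not among the samples and 48 normalized columns were not used.

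Genes were filtered with filterByExpr, scaled by TMM and tested with the quasi-likelihood test of edgeR 4.0.16 (limma 3.58.1, R 4.3.3), with p-values adjusted over all genes tested by Benjamini-Hochberg. Comparisons of siRNAs and of days were fitted within a cell type on its 6 group means, and those between cell types, with the difference of the siTead1/4 effect, on all 12 group means (16926 genes). A gene was called where its log2 fold change exceeded 1 in either direction and its adjusted p was below 0.05. Alternatives were DESeq2 1.42.0, RLE size factors, no filter, at least 10 counts in every library, the replicate number as a block, other sets of libraries and leaving out each replicate. After the data were seen, leaving out the 1 C2C12 siTead1/4 library of day 0 that stood apart and a crossed block were added. The fitting code was tested on simulated data.

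The members and the gene lists (other enzymes, regulators and uptake, efflux, isoprenoid use, fatty acid synthesis, and markers of muscle, cycling, fibroblast, adipocyte, macrophage and endothelial cells) were chosen with earlier results of these data known, the lists from general knowledge of the genes. Named are all members and the other enzymes, every listed gene called for silencing, up to 3 called genes with the largest changes per list and comparison, Srebf1, Srebf2, Insig1, Abca1, the siRNA targets and the 10 genes most like the members, except that a few genes of these lists are not reported here by name and stand only in the counts. Replicates that share a number are not tied to each other by the labels and were not paired. Promoter sequences are from RefSeq (GRCm38.p6), and gene positions are those of mm9.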

Additional observations from a re-analysis of the deposited data

How the results depend on the processing

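With DESeq2, RLE size factors, no filter or at least 10 counts, all 18 medians of the members moved by less than the spread between replicates, and only medians within 0.01 of 0 changed sign. With 1 replicate left out, the silencing medians lay between -0.2877 and 1.5879, -0.4850 and 0.4174, and -0.6848 and 0.0489 in C2C12 cells at days 0, 3 and 6, and between -0.4326 and -0.2738, 0.1223 and 0.3721, and -0.0395 and 0.0057 in PMs. It gave 1.1987 to 1.8258 for day 3 against day 0 in C2C12 cells, 0.0173 to 0.3479 for day 6 against day 0 in PMs, -0.2314 to 0.1658 between the cell types at day 3, and -1.7074 to -0.0399 and -0.4600 to 0.5917 for the difference of the siTead1/4 effect at days 0 and 3. Without only replicate 2 of siTead1/4 C2C12 cells at day 0, an alternative chosen after seeing the data, the day 0 medians were -0.2873 for silencing in C2C12 cells and -0.0267 for the difference. The PM day 0 silencing median was -0.3215 from its 4 libraries alone, and the PM median of day 6 against day 0 was 0.2401 from all 24 libraries. The causes were not tested.

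Calls of the members depended on the setting in C2C12 cells. From day 0 to day 3 edgeR called 3 of 7 higher, DESeq2 6, no filter 6, the 4 libraries alone 6 and all 24 libraries 6. Of all genes, 16%, 16.4%, 11%, 17.9% and 16.7% were called higher in these settings. From day 0 to day 6 the count was 4, beside 17.1% of all genes called higher, and it became 6 in each of these other settings. DESeq2 called 30.6% of all genes there in either direction. For silencing at day 0 it was 0, with 1 by DESeq2, 3 with no filter and 1 with all 24 libraries, beside 0.712%, 0.876% and 0.668% of all genes called higher. In PMs from day 0 to day 3 it was 4, beside 17.5% of all genes called higher. The number of all genes called, here in either direction, moved more. Over the alternatives that keep every replicate, silencing called 67 (0 to 480), 195 (7 to 1055) and 7 (0 to 387) genes in C2C12 cells at days 0, 3 and 6, and 420 (204 to 586), 532 (312 to 804) and 120 (0 to 335) in PMs. DESeq2 called 257, 598 and 144 in C2C12 cells. Day 6 against day 3 called 0 (0 to 102) in C2C12 cells and 452 (148 to 732) in PMs, PMs against C2C12 cells 4534 (2096 to 4757), 5044 (2353 to 5308) and 4210 (1662 to 4572), and the difference of the effects 1 (1 to 88), 212 (115 to 853) and 6 (0 to 146). The highest values came mostly with no filter.

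No source ties samples that share a replicate number, and with 2 numbers a group they were not treated as pairs. Deviations of same-numbered libraries correlated at -0.1301, 0.08957 and 0.4681 in C2C12 cells and at 0.377, 0.4088 and 0.5035 in PMs between siRNAs at days 0, 3 and 6, and between days of siControl cells at 0.1494 to 0.3321 in C2C12 cells and 0.1269 to 0.26 in PMs, so that in PMs all 6 were above 0.1. With the replicate block the median was 0.9538 for silencing in C2C12 cells at day 0 and 1.5014 for day 3 against day 0, where 2 members were called, Mvd and Dhcr7, and the call of Cyp51 was lost. Without the block, 3 members and 16% of all genes were called higher at day 3 against day 0 in C2C12 cells. In PMs the block changed the call of no member, its silencing medians were -0.3498, 0.2466 and 0.0029, and it called 340, 489 and 170 genes higher and 246, 303 and 120 lower on the successive days. A crossed block at C2C12 day 0 gave a median of 0.7183, 0 members called and 37 genes higher and 83 lower.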
